A study of Mus musculus with 28 samples.

Results

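This is a comparison of mouse bone marrow derived macrophages polarized with interferon-γ (IFN-γ) and sorted as non-phagocytic with unpolarized macrophages (M0). The 8 libraries were chosen by their labels, 4 per group, out of 28 libraries in the series. All are labelled wild-type, and the labels give neither strain nor age. Bone marrow derived macrophages are macrophages grown in culture from marrow precursors. The IFN-γ group was cultured for 48 h with IFN-γ at 50 ng/mL and consists of the macrophages sorted as not having taken up labelled T cells. In the series, macrophages met dying CD4+ T cells, either regulatory (Treg) or conventional (Tconv), in which ATP/NAD+ had induced apoptosis and which carried a fluorescent antibody to CD4, and were then sorted on uptake. The M0 group was cultured for 48 h without either cytokine. The series' design lists such conditions among the co-cultures, but the labels of these libraries name no T cells and no uptake status. The difference between these groups therefore holds the cytokine together with any difference in co-culture and sorting, and these cannot be told apart. The labels give no date or batch of library preparation, and depth differed with the cytokine: all 12 IFN-γ libraries of the series lay at 11.1% to 24.2% of the deepest library and all M0 and IL-10 libraries at 48.9% to 100%. A difference in library preparation and the effect of the cytokine therefore cannot be told apart either. A further 4 libraries, of macrophages polarized with interleukin-10 (IL-10) at 50 ng/mL for 48 h and also sorted as non-phagocytic, were used only to show how far the change from M0 differed between the cytokines. The labels do not say whether replicates came from separate cultures or animals, so p-values measure only the spread between these libraries.

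IFN-γ is the cytokine by which T cells and natural killer cells activate macrophages. It binds a receptor of IFNGR1 and IFNGR2 chains, the attached kinases JAK1 and JAK2 pass the signal on, and target genes respond through gamma-activated sites (GAS) in their promoters. One early target is Irf1, whose protein binds interferon-stimulated response elements (ISRE), and later targets include guanylate-binding proteins, immunity-related GTPases, antigen presentation genes and chemokines that attract T cells. SOCS1 is induced by the same pathway and inhibits the kinases.

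The values were TPM, the transcripts of a gene relative to all transcripts of a library, so that every library has the same total. The total read number is not known, but low TPM values fall on multiples of the value of 1 read, which gives relative depth. The IFN-γ libraries reached 18.5% to 22.5% of the depth of the deepest library and the M0 libraries 68.3% to 100%. A single read in a transcript of 1 kb effective length was worth 0.297 to 0.36 TPM in the IFN-γ libraries and 0.0668 to 0.0977 TPM in the M0 libraries. Between 15376 and 15723 genes had a value above 0 in IFN-γ and between 17802 and 18392 in M0. The median SD of log2 values between replicates was 0.23 in IFN-γ and 0.0962 in M0. Depth and group cannot be told apart here. Replicate 1 was the shallowest M0 library. It was the highest M0 library for 35.4% of all genes tested and for 56.7% of the genes that rose by at least 1 on the log2 scale. No 2 libraries held identical values.

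The promoters of 5 genes are printed because their sequences hold the elements named above and the genes did not all respond. Each line holds the 180 bases directly before the transcription start, 5′ to 3′ on the gene's strand, from RefSeq (GRCm38.p6). Matches to GAS (TTCNNNGAA) or ISRE (TTTCNNTTTC or its reverse complement GAAANNGAAA) are in capitals. Irf1 lies at chr11:53769834-53770013, Gbp2 at chr3:142620483-142620662, Gbp5 at chr3:142496754-142496933, Igtp at chr11:58199376-58199555 and Irgm2 at chr11:58214797-58214976, all on the plus strand.
Irf1: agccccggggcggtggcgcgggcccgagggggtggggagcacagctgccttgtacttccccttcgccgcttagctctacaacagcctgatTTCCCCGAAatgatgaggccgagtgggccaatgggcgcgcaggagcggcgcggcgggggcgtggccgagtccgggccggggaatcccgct
Gbp2: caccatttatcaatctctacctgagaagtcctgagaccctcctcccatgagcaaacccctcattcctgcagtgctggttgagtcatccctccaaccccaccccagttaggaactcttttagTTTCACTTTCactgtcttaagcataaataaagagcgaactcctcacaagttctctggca
Gbp5: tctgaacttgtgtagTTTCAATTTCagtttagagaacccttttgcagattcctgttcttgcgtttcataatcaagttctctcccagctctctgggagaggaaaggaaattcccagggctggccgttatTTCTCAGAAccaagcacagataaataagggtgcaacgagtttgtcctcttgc
Igtp: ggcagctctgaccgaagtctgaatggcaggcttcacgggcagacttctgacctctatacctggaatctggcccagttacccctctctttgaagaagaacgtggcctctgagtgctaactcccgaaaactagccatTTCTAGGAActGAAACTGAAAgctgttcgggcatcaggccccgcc
Irgm2: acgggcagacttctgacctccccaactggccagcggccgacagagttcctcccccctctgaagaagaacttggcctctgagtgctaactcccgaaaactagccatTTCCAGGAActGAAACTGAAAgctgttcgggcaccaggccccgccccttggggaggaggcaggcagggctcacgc
The Irf1 promoter holds a GAS match, the Gbp2 promoter an ISRE match, and the Gbp5 promoter one of each. The promoters of Igtp and Irgm2, genes for immunity-related GTPases, both hold a GAS match followed after 2 bases by an ISRE match with the same 10 letters. Irf1, Gbp2, Gbp5 and Igtp rose in the IFN-γ libraries and Irgm2 did not pass the test, with the values given below. Over all 27025 genes with a promoter in the RefSeq table, in windows of 250 bases before to 50 bases after the start and on both strands, 8.47% held GAS and 3.49% held ISRE. Among genes tested, of which 9000 were matched, the shares were 6.87% and 3.34%. Of the genes that rose by at least 1 on the log2 scale, 717 of 1172 were matched to a promoter, and 7.95% of these held GAS and 7.39% ISRE. Of the genes that fell by at least 1, 435 of 593 were matched, and 5.98% held GAS and 3.22% ISRE. Of 11 guanylate-binding protein genes 5 were matched and all 5 held ISRE, as did 7 of 9 matched promoters of immunity-related GTPases and 14 of 21 of type I interferon antiviral genes. Other lists whose members mostly rose had smaller shares: 5 of 18 matched promoters of MHC class I and immunoproteasome genes, 2 of 15 of chemokine ligands and 1 of 9 of MHC class II genes, and 1 of the 6 matched genes among the 12 largest rises. Among lists whose members did not mostly rise, the ISRE share ran from 0 of 17 for glycolysis genes to 2 of 3 for NADPH oxidase genes. A match is a run of letters and not evidence of binding, and genes within a family share sequence.

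A level of 1 TPM or more in 4 or more of the 8 libraries was reached by 12068 genes. Of these 6913 differed between the groups at an adjusted p under 0.05 (limma, Benjamini-Hochberg), which is 57.3%, and for 54.1% the fitted values of the groups did not overlap. Of all genes tested, 27.5% rose (3317) and 29.8% fell (3596), so a count within a gene list is read against these shares. A log2 fold change of at least 1 in size was reached by 1172 of the rises (9.71%) and 593 of the falls (4.91%). Fold changes are differences of log2(TPM + 1) after trimmed-mean scaling, and understate the change of genes near or below 1 TPM. A gene below 1 TPM in all libraries of 1 group could pass the filter only through the other group, so the filter set its direction. The scaling moves all fold changes: without it the median over all genes was -0.29, against -0.05 with it, and 2327 genes rose and 5475 fell. TPM values below are as deposited, so a small fitted rise can stand beside nearly equal TPM. Where 2 values are joined by ±, they are the mean and SD over the 4 libraries of a group. A number alone in brackets after TPM values, or after "rose by" or "fell by", is a log2 fold change, and each such gene passed the same test over all genes. Transcripts of the CD3 chains and T cell receptor constant genes summed to 431 ± 118 TPM in the IFN-γ libraries and 47.3 ± 29.4 TPM in M0, as described below, and their part in the gene group results was not tested.

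The largest rises among genes of at least 10 TPM included mitochondrial ribosomal RNA, guanylate-binding proteins, the inducible heat shock protein genes Hspa1a and Hspa1b, the lymphocyte antigen gene Ly6a, and chemokine genes. Genes outside these groups were among the largest rises as well. The largest falls included contractile and matrix genes. Gbp2, which encodes a GTPase that attacks the vacuoles of intracellular pathogens, stood at 6.31, 4.39, 4.64 and 3.64 TPM in the M0 libraries and 279, 281, 221 and 268 TPM in the IFN-γ libraries. The groups were far apart, and the ratio of the mean TPM was 55.2 (log2 fold change 5.77, SE 0.14, adjusted p = 6.8e-09). Acta2, the smooth muscle actin gene, stood at 38.1, 40.7, 48.5 and 43.8 TPM in the M0 libraries and 1.66, 0.52, 0.76 and 0.47 TPM in the IFN-γ libraries, with no overlap in the opposite direction (log2 fold change -4.41, SE 0.20, adjusted p = 1.6e-07).

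**Figure D1:**
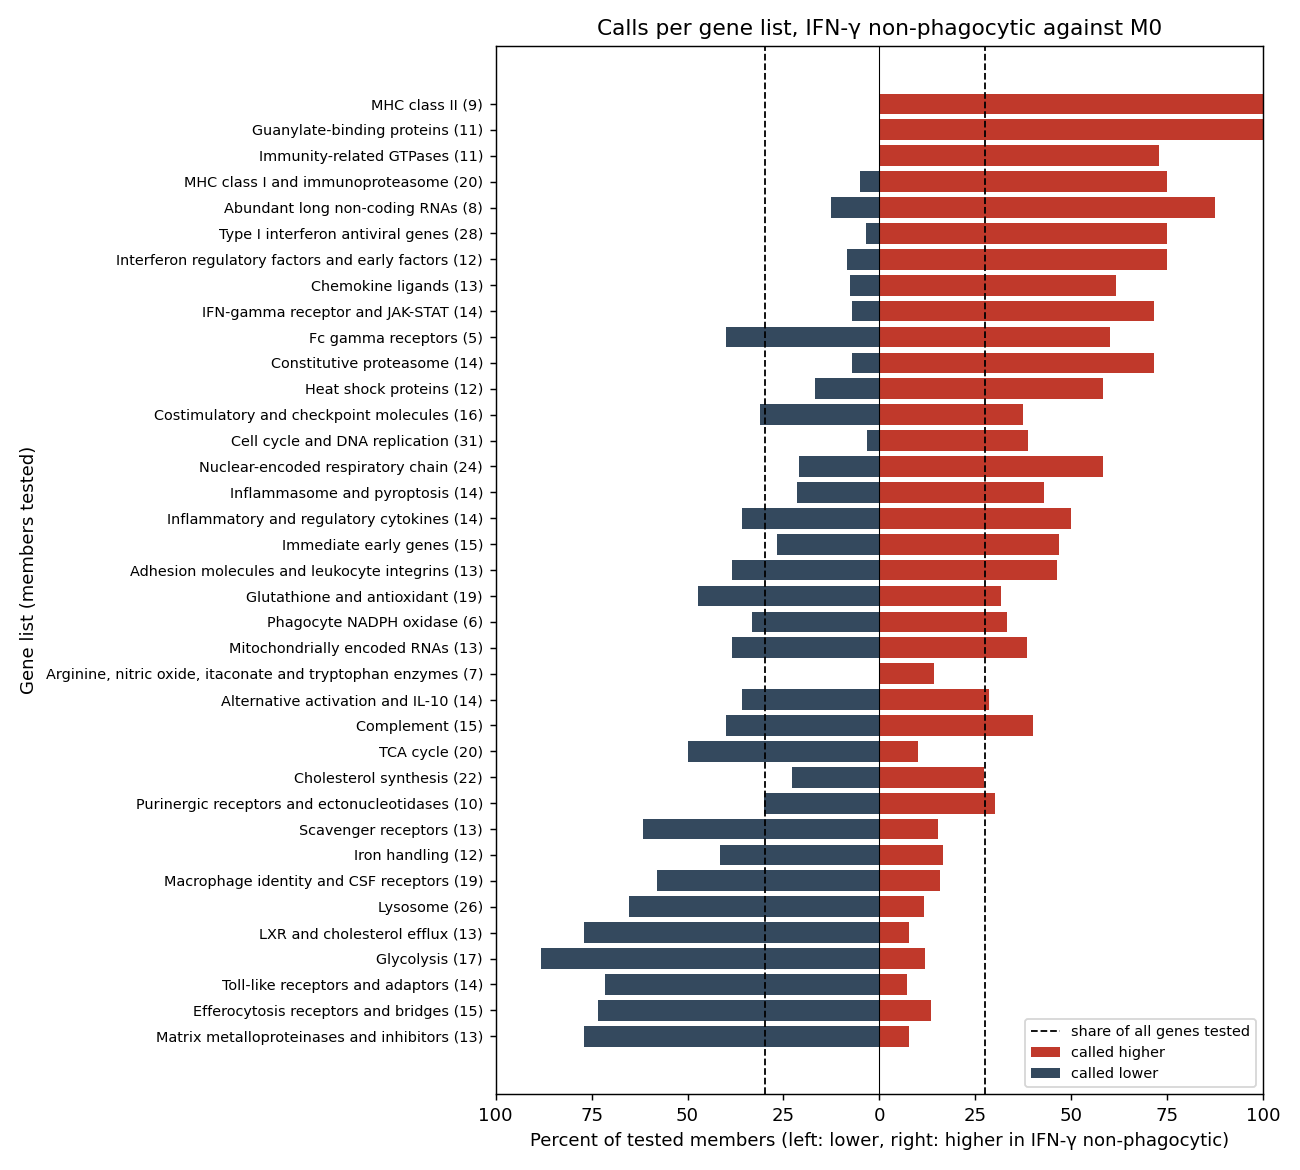
Percent of tested members of each gene list called higher (right, red) or lower (left, dark) in the IFN-γ non-phagocytic libraries than in M0, with the number tested in brackets. Dashed lines mark the shares of all genes tested, 27.5% higher and 29.8% lower, and all tested members of MHC class II and the guanylate-binding proteins were higher.

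The receptor and kinase genes moved little, and the inhibitors Socs1, Socs3 and Usp18 rose. In this list 10 of 14 tested members rose and 1 fell, with a median log2 fold change of 0.70. Ifngr1, the ligand-binding chain, stood at 121, 111, 114 and 106 TPM in the M0 libraries and 82.1, 81.5, 90.9 and 88.1 TPM in the IFN-γ libraries. The TPM ranges did not overlap, but the fitted values did and the difference missed the threshold (log2 fold change -0.13, SE 0.05, adjusted p = 0.062). Without scaling Ifngr1 was called lower at -0.39 (adjusted p = 2.5e-04). Ifngr2, the signalling chain, overlapped between groups at 45.8, 47.8, 47.2 and 44.7 TPM in the M0 libraries and 35.4, 30.7, 54.9 and 41.3 TPM in the IFN-γ libraries (log2 fold change 0.04, SE 0.15, adjusted p = 0.84). Of the kinases, Jak1 fell from 82.6 ± 1.7 to 53.4 ± 9.23 TPM (log2 fold change -0.37, SE 0.10, adjusted p = 0.0094) and Jak2 rose from 14.5 ± 1.3 to 17.8 ± 1.15 TPM (log2 fold change 0.53, SE 0.09, adjusted p = 7.7e-04). Socs1, the feedback inhibitor, was low in M0 at 1.12, 0.86, 1.05 and 0.83 TPM and reached 3.98, 4.18, 6.98 and 3.82 TPM in IFN-γ (log2 fold change 1.69, SE 0.19, adjusted p = 5.2e-05). Usp18, which blocks type I interferon signalling at its receptor, rose from a mean of 4.01 ± 0.394 to 16.98 ± 3.36 TPM (log2 fold change 2.06, adjusted p = 4.1e-06). Socs3, an inhibitor of signalling by cytokines of the IL-6 family, rose from 3.79 ± 1.16 to 14.9 ± 2.62 TPM (log2 fold change 1.98, adjusted p = 2.2e-05).

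**Figure D2:**
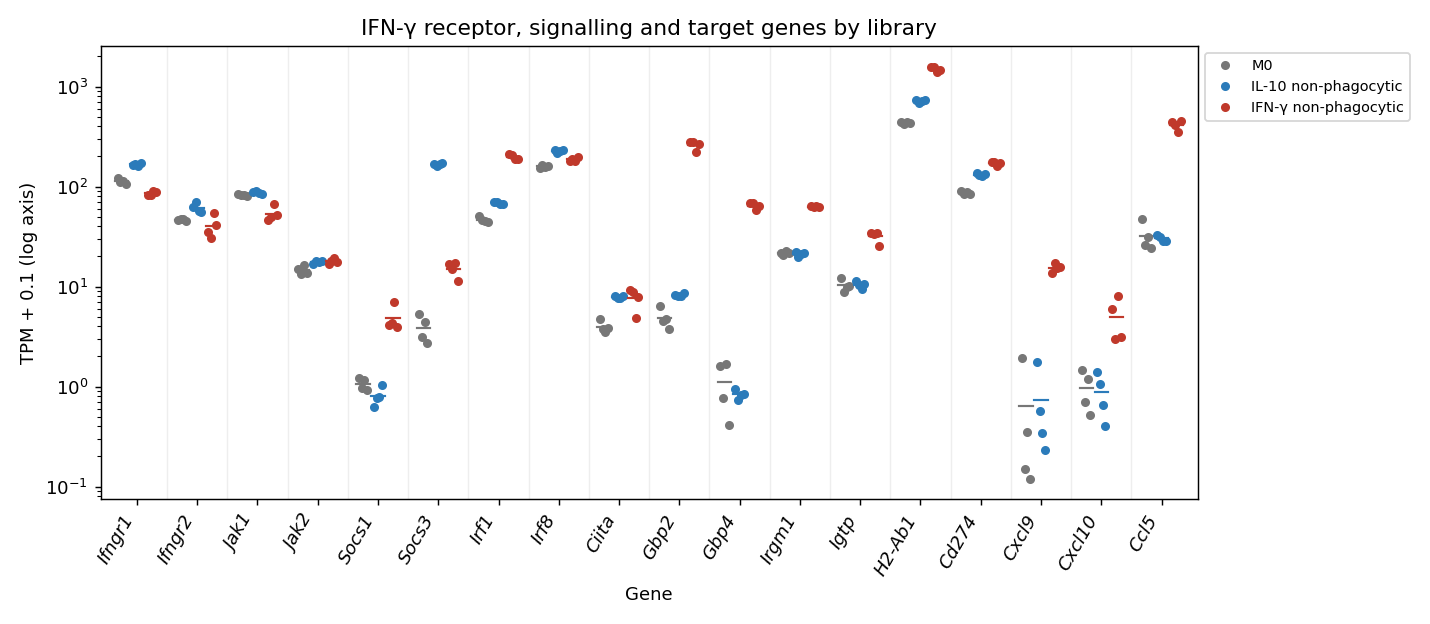
TPM plus 0.1 on a log axis for IFN-γ receptor, signalling and target genes in each library, with M0 in grey, IL-10 non-phagocytic in blue and IFN-γ non-phagocytic in red; points are libraries and bars are group means. Irf1, the GTPase genes and the chemokine genes of the IFN-γ libraries lie above all M0 libraries, while those of Ifngr2 overlap.

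Among the interferon regulatory factors and other early transcription factors, 9 of 12 tested members rose and 1 fell (8 and 3 without scaling). Irf1 stood at 50.5, 46.1, 44.9 and 44.04 TPM in the M0 libraries and 213, 205, 189 and 189.61 TPM in the IFN-γ libraries, and the groups did not overlap (log2 fold change 2.34, SE 0.06, adjusted p = 1.2e-08). Irf7, a factor that amplifies type I interferon production, rose from a mean of 27.4 ± 3.56 to 114 ± 11.8 TPM (log2 fold change 2.28, adjusted p = 1.5e-07). Irf8, which directs macrophage and dendritic cell development, rose by 0.49. Irf5 fell by 0.28 on the log2 scale, from 139 ± 2.54 to 94.8 ± 3.66 TPM. Nlrc5, the transactivator of MHC class I genes, stood at 23.6, 17.2, 19.5 and 17.7 TPM in the M0 libraries and 68.3, 65.4, 38.3 and 67.9 TPM in the IFN-γ libraries (log2 fold change 1.80, SE 0.19, adjusted p = 3.7e-05). Ciita, the transactivator of MHC class II genes, stood at 4.63, 3.62, 3.42 and 3.79 TPM in the M0 libraries and 9.13, 8.76, 4.74 and 7.72 TPM in the IFN-γ libraries. IFN-γ replicate 3 was the lowest of its group for both genes, and for Ciita it lay close to the highest M0 library (log2 fold change 1.01, SE 0.20, adjusted p = 0.0017).

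All 11 guanylate-binding protein genes rose, each by at least 1 on the log2 scale, with a median of 2.00. Their summed level was 27.8 to 35.5 TPM in the M0 libraries and 398 to 466 TPM in the IFN-γ libraries. Gbp2 made up most of the sum in the IFN-γ libraries. Gbp4 stood at 1.49, 0.66, 1.57 and 0.31 TPM in the M0 libraries and 67.6, 67.8, 57.9 and 63.4 TPM in the IFN-γ libraries and did not overlap (log2 fold change 5.27, SE 0.20, adjusted p = 6.2e-08). Gbp5, whose protein promotes inflammasome assembly, stood at 0.8, 0.53, 0.73 and 0.6 TPM in the M0 libraries and 5.28, 8.6, 9.41 and 7.4 TPM in the IFN-γ libraries (log2 fold change 2.53, SE 0.18, adjusted p = 2.8e-06). Gbp8 was the member with the highest mean in M0, at 13.5 ± 1.05 TPM, and rose to 39.2 ± 4.26 TPM (log2 fold change 1.72, adjusted p = 5.3e-07). Several of these genes are near-identical copies, so their division of reads depends on how the authors' quantification shared them.

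Of the immunity-related GTPases, which act on pathogen vacuoles and on one another, 8 of 11 tested members rose and 0 fell. Irgm1, a regulator of the family, stood at 21.4, 20.6, 22.5 and 21.7 TPM in the M0 libraries and 63.2, 62.4, 63.5 and 62.98 TPM in the IFN-γ libraries, with a narrow spread in both groups (log2 fold change 1.76, SE 0.06, adjusted p = 2.8e-08). Igtp stood at 12.2, 8.82, 9.71 and 10.04 TPM in the M0 libraries and 34, 33.1, 34.5 and 25.6 TPM in the IFN-γ libraries (log2 fold change 1.80, SE 0.12, adjusted p = 2.1e-06). Its neighbour with the matching promoter elements, Irgm2, overlapped at 7.71, 6.33, 6.91 and 6.58 TPM in the M0 libraries and 6.99, 4.23, 5.42 and 5.28 TPM in the IFN-γ libraries and did not pass the test (log2 fold change -0.07, SE 0.15, adjusted p = 0.72). Gbp5 and Irgm2 are named here after their values were seen. Iigp1, an effector GTPase, was under 0.5 TPM in all M0 libraries and stood at 8.08, 7.39, 7.42 and 6.81 TPM in IFN-γ (log2 fold change 2.88, SE 0.14, adjusted p = 3.0e-07). Tgtp2 rose from 1.66 ± 0.524 to 12.8 ± 2.77 TPM (log2 fold change 2.58, adjusted p = 2.9e-06), but its reads can be shared with a near-identical copy.

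All 9 tested MHC class II and related genes rose, with a median log2 fold change of 2.03. H2-Ab1, the class II β chain gene, stood at 438, 426, 438 and 431 TPM in the M0 libraries and 1586, 1585, 1396 and 1479 TPM in the IFN-γ libraries. The lowest IFN-γ library was over 3 times the highest M0 library (log2 fold change 2.06, SE 0.05, adjusted p = 6.8e-09). H2-Aa, its α chain partner, rose from 450.27 ± 22.8 to 1337 ± 55.3 TPM (1.83). Cd74, the invariant chain that guides class II molecules to endosomes, rose from 1309.7 ± 42.97 to 2825 ± 169 TPM (1.37). H2-DMa, which loads peptides, rose by 2.11. The genes of its inhibitor, H2-Oa and H2-Ob, were low in M0, with means of 0.623 ± 0.0727 and 2.21 ± 0.913 TPM, and rose to 7.02 ± 1.17 and 22.9 ± 1.76 TPM (log2 fold changes 2.46 and 3.15). H2-Oa and H2-Ob are also expressed by B cells, and B cell marker values are given below.

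For MHC class I and the immunoproteasome, 15 of 20 tested members rose and 1 fell (14 and 4 without scaling). B2m, the light chain of class I, stood at 3168, 2847, 3126 and 2861 TPM in the M0 libraries and 6107, 6083, 5889 and 6013 TPM in the IFN-γ libraries (log2 fold change 1.27, SE 0.04, adjusted p = 2.2e-08). H2-K1, a classical class I heavy chain gene, stood at 2902, 3049, 2978 and 3076 TPM in the M0 libraries and 6606, 6904, 5673 and 6235 TPM in the IFN-γ libraries (log2 fold change 1.34, SE 0.06, adjusted p = 1.5e-07). H2-D1, another classical heavy chain gene, stood at 5306, 5812, 5549 and 5974 TPM in the M0 libraries and 4454, 4430.45, 4254 and 4436 TPM in the IFN-γ libraries, and the difference missed the threshold (log2 fold change -0.10, SE 0.04, adjusted p = 0.083). Without scaling H2-D1 was lower at -0.36 (adjusted p = 3.0e-05). These genes share long stretches of sequence, and the strain of the mice is not given. The peptide transporter gene Tap1 rose from 78.1 ± 4.99 to 143 ± 8 TPM (1.13). The immunoproteasome subunit genes Psmb8 and Psmb9 rose by 0.72 and 1.35. These 3 genes are named after their values were seen. Among the constitutive proteasome subunits 10 of 14 tested members rose and 1 fell, none by 1 or more on the log2 scale. Psma5 showed the largest of these rises, from 67.6 ± 5.48 to 98.8 ± 5.69 TPM (0.81), and Psmb5, the catalytic subunit that Psmb8 replaces, fell by 0.16.

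Of 13 tested chemokine genes 8 rose and 1 fell (7 and 3 without scaling), with a median log2 fold change of 0.81. Ccl5, which attracts T cells and monocytes, stood at 47.5, 26.1, 30.9 and 24.2 TPM in the M0 libraries and 441, 417, 352 and 457 TPM in the IFN-γ libraries, far from overlap (log2 fold change 3.96, SE 0.18, adjusted p = 1.9e-07). Ccl5 is also made by T cells. Cxcl9, a ligand of CXCR3 on activated T cells, stood at 1.83, 0.05, 0.25 and 0.02 TPM in the M0 libraries and 13.6, 17.2, 15.1 and 15.6 TPM in the IFN-γ libraries (log2 fold change 3.71, SE 0.29, adjusted p = 5.2e-06). Its M0 level came mostly from replicate 1. Cxcl10, the sister ligand, stood at 1.38, 0.6, 1.09 and 0.42 TPM in the M0 libraries and 5.88, 2.86, 7.87 and 3.02 TPM in the IFN-γ libraries, again with separate groups but only a few TPM (log2 fold change 1.76, SE 0.30, adjusted p = 7.5e-04). Ccl8, a monocyte chemoattractant, was at or below 0.28 TPM in M0 and stood at 14.1, 13.8, 8.24 and 23.5 TPM in IFN-γ (log2 fold change 3.82, SE 0.27, adjusted p = 2.9e-06). Cxcl2, a neutrophil attractant, was the 1 that fell (log2 fold change -0.41, SE 0.13, adjusted p = 0.025), a call lost without M0 replicate 1 (-0.35, adjusted p = 0.069).

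Of the cytokines, 7 of 14 tested members rose and 5 fell (6 and 7 without scaling). Tnf stood at 8.51, 6.62, 7.38 and 7.24 TPM in the M0 libraries and 22.7, 12.6, 19.9 and 16.5 TPM in the IFN-γ libraries (log2 fold change 1.38, SE 0.17, adjusted p = 1.0e-04). Il27, an immunoregulatory cytokine subunit, rose from 2.23 ± 0.678 to 11.96 ± 4.7 TPM (2.18), and Il10 from 0.355 ± 0.136 to 2.66 ± 0.735 TPM (1.55). Csf1, the macrophage growth factor gene, fell from 16.7 ± 0.686 to 2 ± 0.945 TPM (-2.4), Spp1 (osteopontin) from 1254 ± 38.5 to 525 ± 17.5 TPM (-0.99), and Tgfb1 from 228 ± 8.3 to 121 ± 7.08 TPM (-0.65). Of the costimulatory and checkpoint genes, 6 of 16 tested members rose and 5 fell, close to the shares over all genes. Cd274 (PD-L1) stood at 90.98, 84.1, 88.4 and 84.6 TPM in the M0 libraries and 176, 175, 162 and 173 TPM in the IFN-γ libraries (log2 fold change 1.23, SE 0.05, adjusted p = 6.5e-08). Cd86, the costimulatory ligand of CD28, fell slightly and its fitted values overlapped, at 26.2, 24.1, 26.1 and 23.8 TPM in the M0 libraries and 11.5, 20.1, 13.8 and 14.1 TPM in the IFN-γ libraries (log2 fold change -0.49, SE 0.15, adjusted p = 0.017). Cd276 fell by 0.99 and Pvr by 0.87.

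Type I interferon antiviral genes also rose: 21 of 28 tested members rose and 1 fell, with a median of 0.87. Zbp1, a sensor of Z-form nucleic acids, stood at 14.3, 9.99, 13.9 and 10.3 TPM in the M0 libraries and 51.1, 62, 42.95 and 55.1 TPM in the IFN-γ libraries (log2 fold change 2.29, SE 0.15, adjusted p = 1.4e-06). Bst2 (tetherin) rose from 387 ± 22.1 to 789 ± 48.2 TPM (1.29), Isg15, a ubiquitin-like modifier, from 33.1 ± 1.58 to 61.9 ± 7.6 TPM (1.14), and Ifit2, which restrains viral translation, from 6.34 ± 0.655 to 19.7 ± 1.17 TPM (1.74). Ifih1, the RNA sensor MDA5, was the member that fell (log2 fold change -0.40, SE 0.11, adjusted p = 0.0089).

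Genes of the nitric oxide, arginine, itaconate and tryptophan pathways were mostly too low to test: 7 of 15 passed the filter, of which Ass1 rose and 0 fell (1 and 3 without scaling). Nos2, inducible nitric oxide synthase, stood at 0.03, 0.05, 0.06 and 0.04 TPM in the M0 libraries and 0.69, 1.36, 1.13 and 0.93 TPM in the IFN-γ libraries, below the filter although the groups were separate. Acod1, which makes itaconate, stood at 0.5, 0.27, 0.61 and 0.35 TPM in the M0 libraries and 2.14, 0.91, 2.01 and 0.83 TPM in the IFN-γ libraries. Arg1, arginase, was listed at 0 in all 4 IFN-γ libraries and at 0.39, 0.14, 0.9 and 0.29 TPM in M0, all below 1 TPM. Ido1 was listed at 0 in all 8 libraries. Ass1, which regenerates arginine from citrulline, stood at 10.5, 9.18, 8.51 and 9.38 TPM in the M0 libraries and 28.9, 34.8, 43.5 and 34.1 TPM in the IFN-γ libraries (log2 fold change 2.04, SE 0.12, adjusted p = 8.2e-07). Of the NADPH oxidase subunits 2 rose and 2 fell (1 and 3 without scaling), and Cyba, the membrane subunit p22phox, rose by 0.64. Among inflammasome genes, 6 of 14 tested members rose and 3 fell (5 and 5 without scaling). Aim2, a DNA sensor, rose from 45.1 ± 5.11 to 109.56 ± 16.5 TPM (1.52) and Nlrp3, a sensor of membrane damage, fell from 13.4 ± 0.99 to 4.32 ± 1.01 TPM (-1.23).

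T cell transcripts were present in every library and higher in the IFN-γ libraries. Summed over the CD3 chains and T cell receptor constant genes (7 genes), they came to 316, 441, 590.5 and 377 TPM in the IFN-γ libraries, to 89.4, 30.3, 45.1 and 24.4 TPM in the M0 libraries and to 58.5, 53.5, 49.8 and 61.5 TPM in the IL-10 libraries. The IFN-γ libraries were separate from the others, and the ratio of their mean to that of M0 was 9.12. Of 22 T cell markers 20 were tested, of which 18 rose and 1 fell, with a median of 2.93. Their summed level was 701 to 1124 TPM in IFN-γ and 223 to 350 TPM in M0, and 0 markers were at 0 in all libraries of a group. Trac, the T cell receptor α constant gene, stood at 13.99, 4.03, 5.61 and 4.77 TPM in the M0 libraries and 50.4, 63.8, 87.99 and 55.9 TPM in the IFN-γ libraries (log2 fold change 3.37, SE 0.31, adjusted p = 1.6e-05). Cd4 stood at 9.1, 4.33, 5.46 and 3.37 TPM in the M0 libraries and 27.4, 25.7, 43.5 and 15.01 TPM in the IFN-γ libraries (log2 fold change 2.36, SE 0.32, adjusted p = 2.0e-04). Il7r, the marker that fell, was already at 159 ± 5.6 TPM in M0 (-0.46). Foxp3, the defining transcription factor of Treg cells, stood at 2.39, 1.17, 1.27 and 1.01 TPM in the M0 libraries and 14.9, 13.3, 19.97 and 10.9 TPM in the IFN-γ libraries (log2 fold change 2.88, SE 0.21, adjusted p = 3.5e-06). Of the Treg markers, 9 of 11 tested members rose and 1 fell. The member that fell had a log2 fold change of -0.87. The summed level of the Treg markers nevertheless was lower in IFN-γ, at 1113 to 1154 TPM, than in M0, at 1339 to 1446 TPM. A sum is set by its most abundant members, and Foxp3 was at most 19.97 TPM of it. The sum therefore does not show that Treg transcripts as a set were lower. Cd8a and Cd8b1 did not pass the filter. Bulk values cannot tell more T cells or T cell fragments, inside or outside macrophages, from more RNA per cell. The part of T cell RNA in the immune gene results above was not tested.

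**Figure D3:**
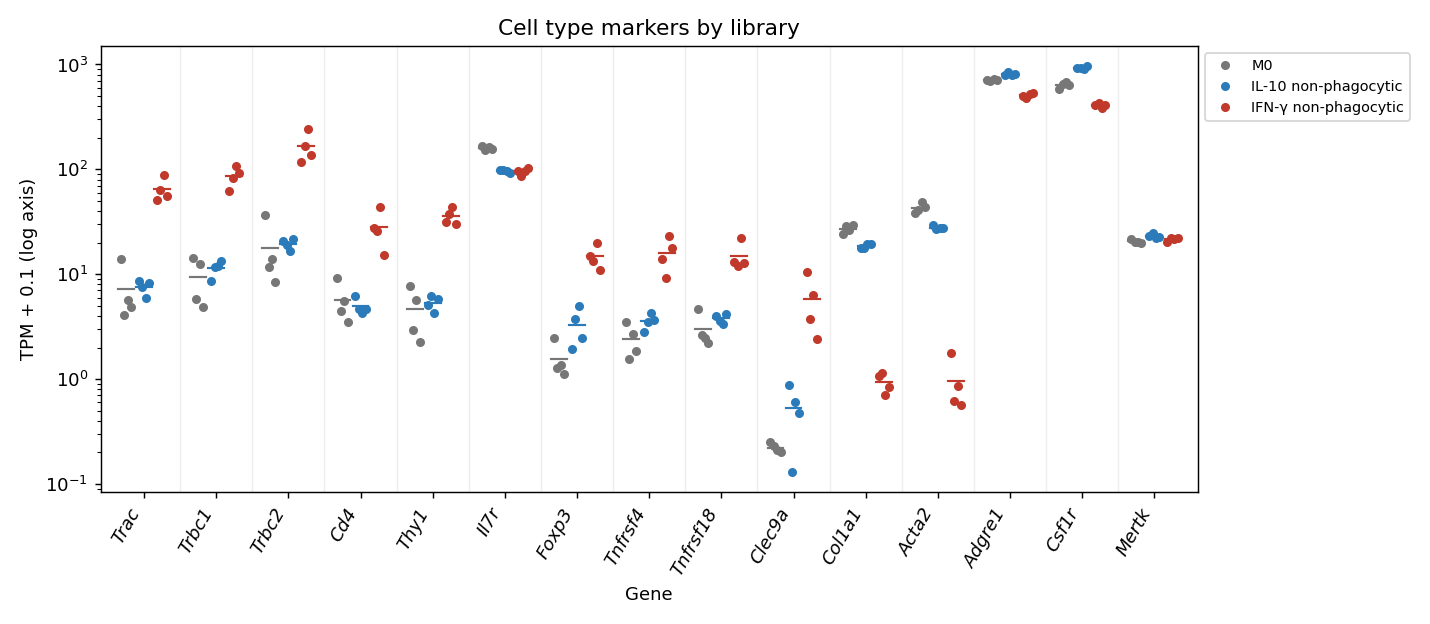
TPM plus 0.1 on a log axis for T cell, Treg, dendritic cell, stromal and macrophage markers in each library, with M0 in grey, IL-10 non-phagocytic in blue and IFN-γ non-phagocytic in red; points are libraries and bars are group means. T cell receptor genes, Cd4 and Foxp3 are highest in the IFN-γ libraries, and Col1a1 and Acta2 are lowest there.

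Markers of other blood cell types also differed. The B cell markers Ighm and Cd79a rose to means of 36.7 ± 10.1 and 2.9 ± 0.478 TPM (from 8.96 ± 2.62 and 0.38 ± 0.103), while 6 of 10 B cell markers did not pass the filter. The summed B cell marker level was 40.7 to 70.4 TPM in IFN-γ and 17.0 to 25.6 TPM in M0, and the part of B cell RNA in the H2-Oa and H2-Ob values was not tested. Clec9a, a marker of dendritic cells, stood at 0.15, 0.13, 0.11 and 0.1 TPM in the M0 libraries and 10.4, 3.61, 6.3 and 2.32 TPM in the IFN-γ libraries (log2 fold change 2.53, SE 0.34, adjusted p = 1.8e-04), and Ccr7, found on dendritic cells and naive T cells, rose by 2.27. Of 9 dendritic cell markers only 4 passed the filter, all of which rose, and 2 of the 9 were at 0 in all 4 IFN-γ libraries. The 4 included Bst2, which is also counted among the type I interferon antiviral genes above. Of 12 neutrophil markers 5 passed the filter, of which 2 rose and 2 fell. Klrk1, which encodes NKG2D, was the 1 tested marker of 8 for natural killer cells and rose to 3.3 ± 1.19 TPM. Clec9a, Cd79a and Klrk1 were below 1 TPM in all M0 libraries. They could pass the filter only by being higher in IFN-γ, so the filter set their direction. No mast cell or basophil marker passed the filter. The macrophage markers were high in both groups, with a summed level of 17731 to 18474 TPM in IFN-γ and 20339.6 to 21170.3 TPM in M0. Of these 12 markers, all tested, 4 rose and 8 fell (2 and 9 without scaling), with a median log2 fold change of -0.34.

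Stromal markers fell together. Of 9 tested, 8 fell by at least 1 on the log2 scale, and the other was Thy1, which T cells also express and which rose by 3.06. Col1a1, a chain of type I collagen, stood at 23.96, 28.5, 26.3 and 29.6 TPM in the M0 libraries and 0.96, 1.05, 0.6 and 0.75 TPM in the IFN-γ libraries (log2 fold change -3.75, SE 0.14, adjusted p = 4.2e-08). The genes Tagln, Ccn2 and Fn1, given next, are not members of the stromal list and do not bear on its count. Tagln, a smooth muscle cytoskeletal gene, fell from 33.7 ± 5.78 to 2.4 ± 1.35 TPM (-3.19). Ccn2, a matricellular gene and target of TGF-β and YAP signalling, stood at 28.8, 29.3, 26.97 and 28.3 TPM in the M0 libraries and 0.47, 0.41, 1.26 and 1.31 TPM in the IFN-γ libraries (log2 fold change -3.83, SE 0.19, adjusted p = 3.0e-07). Fn1 (fibronectin) fell from 25.5 ± 2.07 to 3.24 ± 1.58 TPM (-2.49). The summed stromal marker level was 147 to 161 TPM in M0, 108 to 112 TPM in IL-10 and 42.1 to 56.2 TPM in IFN-γ, where Thy1 was most of it. M0 labels name no sort, and the part of stromal cells in these values was not tested. Of the metalloproteinases and their inhibitors, 1 of 13 tested members rose and 10 fell. Mmp12, the macrophage elastase, stood at 864, 825, 869 and 816 TPM in the M0 libraries and 182, 166, 188 and 187 TPM in the IFN-γ libraries (log2 fold change -1.95, SE 0.05, adjusted p = 6.8e-09).

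Features of the RNA itself also differed. The mitochondrial ribosomal RNA mt-Rnr1 stood at 249, 165, 195 and 171 TPM in the M0 libraries and 11222, 11628, 10420 and 11863 TPM in the IFN-γ libraries (log2 fold change 6.13, SE 0.11, adjusted p = 3.4e-09), and mt-Rnr2 rose by 4.8. The nuclear small RNAs Rn7sk and Rpph1 and the signal recognition particle RNA Rn7s1, which lack long poly(A) tails, rose by 3.72, 3.09 and 3.3. Rpph1 and Rn7s1 were named after their values were seen, and Rn7s1 has a near-identical copy. The labels describe poly(A) RNA. Transcripts of mitochondrial origin made up 7.87% to 8.74% of TPM in IFN-γ and 5.03% to 5.47% in M0. Among the mitochondrially encoded RNAs, 5 of 13 tested members rose and 5 fell (2 and 8 without scaling): mt-Co2, a cytochrome oxidase subunit, rose by 2.52 and mt-Nd5, a complex I subunit, fell by 0.99. Of the genes that rose by at least 1, 8.02% were pseudogenes and 74.1% protein-coding, against 3.60% and 90.4% of all genes tested. Over genes, the fold change declined with transcript length, from a median of 0.44 below 500 nt to -0.32 above 5000 nt, and 99.9% of genes had a length. Actb, added after its values were seen, stood at 1851, 1989, 1898 and 2011 TPM in the M0 libraries and 706, 682, 811 and 662 TPM in the IFN-γ libraries (log2 fold change -1.17, SE 0.06, adjusted p = 3.0e-07). The part of RNA composition and depth in the other results was not tested. After a correction for transcript length and GC, also chosen after seeing the data, 6770 genes were called, and the mitochondrially encoded RNAs went to 2 higher and 10 lower.

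**Figure D4:**
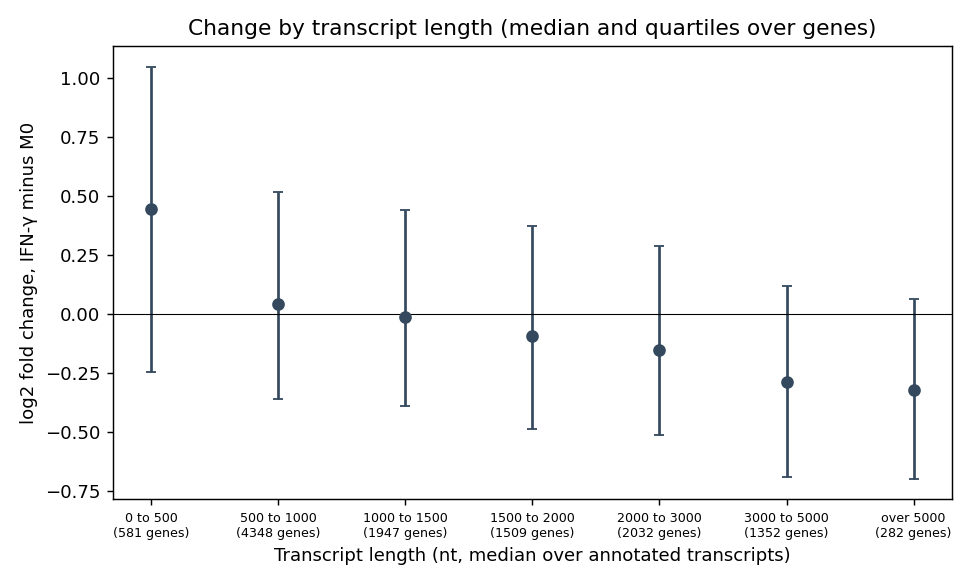
Log2 fold change of IFN-γ non-phagocytic against M0 libraries by transcript length in nt; points are medians over genes and bars the lower and upper quartiles, which are spread over genes and not errors. The median falls from 0.44 in the shortest class to -0.32 in the longest.

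Heat shock protein genes were led by Hspa1a and Hspa1b, which encode the inducible HSP70 and share nearly all their sequence. Hspa1b stood at 16.3, 8.14, 11.4 and 8.07 TPM in the M0 libraries and 516, 549, 408 and 480.24 TPM in the IFN-γ libraries (log2 fold change 5.65, SE 0.19, adjusted p = 3.7e-08). Hspa1a rose by 5.33. Of 12 members 7 rose and 2 fell: Hspa8, the constitutive HSP70, rose by 0.39, while the endoplasmic reticulum chaperone Hspa5 fell by 0.68 and the mitochondrial chaperone Hspd1 by 0.72. Of the immediate early genes 7 rose and 4 fell, against 3 and 5 without scaling. Egr1, a growth factor-induced transcription factor, stood at 52.04, 56.6, 56.4 and 57.1 TPM in the M0 libraries and 5.24, 6.24, 6.48 and 5.77 TPM in the IFN-γ libraries (log2 fold change -2.79, SE 0.09, adjusted p = 2.3e-08), whereas Nr4a1, induced by T cell receptor and inflammatory signals, rose from 11.9 ± 1.28 to 31.2 ± 8.03 TPM (1.54). Of the cell cycle genes 12 rose, 1 fell (10 and 5 without scaling) and 18 did not pass the test. Aurkb, a mitotic kinase gene, stood at 7.14, 6.74, 7.22 and 7.16 TPM in the M0 libraries and 33.3, 26.9, 17.5 and 15.2 TPM in the IFN-γ libraries (log2 fold change 1.76, SE 0.22, adjusted p = 1.1e-04), and Cdkn1a, the cell cycle inhibitor p21, rose from 222 ± 3.54 to 326 ± 7.53 TPM (0.82).

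Toll-like receptor genes mostly fell: 1 of 14 tested members rose and 10 fell. Tlr4, the receptor for lipopolysaccharide, stood at 21.4, 18.1, 21.1 and 18.9 TPM in the M0 libraries and 5.02, 5.54, 5.36 and 5.4 TPM in the IFN-γ libraries (log2 fold change -1.48, SE 0.10, adjusted p = 1.5e-06). Tlr8 fell from 50.4 ± 2.36 to 14.3 ± 2.33 TPM (-1.51), and Unc93b1, the chaperone of endosomal receptors, from 727 ± 14.6 to 465 ± 8.5 TPM (-0.38). The member that rose was Ly96, the MD-2 partner of Tlr4 (1.01). Among Fcγ receptor genes, Fcgr4, Fcgr2b and the shared signalling chain Fcer1g rose by 0.6, 0.53 and 0.93, while Fcgr1, the high-affinity receptor, fell by 0.42 and Fcgr3 by 0.36. Of the complement genes 6 rose and 6 fell. C3, the central component, stood at 24.2, 19.6, 20.8 and 16.7 TPM in the M0 libraries and 74.3, 84.2, 76.5 and 74.8 TPM in the IFN-γ libraries (log2 fold change 2.15, SE 0.10, adjusted p = 1.8e-07), and C4b and Cfb rose from below 1 TPM to means of 3.88 ± 1.21 and 5.39 ± 2.61 TPM. C5ar1, the receptor for the C5a fragment, stood at 123, 150.37, 137 and 148 TPM in the M0 libraries and 29.7, 25.3, 37.6 and 37.9 TPM in the IFN-γ libraries (log2 fold change -1.82, SE 0.13, adjusted p = 3.1e-06). C3ar1, the receptor for the C3a fragment, fell by 1.06. C1qc also fell, by 0.12, a call lost without M0 replicate 3 (adjusted p = 0.051), while C1qa rose by 0.64.

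Genes for the uptake of dying cells and for the handling of their lipid fell more often than they rose. Of the efferocytosis receptors and bridging molecules, 2 of 15 tested members rose and 11 fell. Mfge8, which bridges phosphatidylserine to integrins, stood at 503, 533, 513 and 526 TPM in the M0 libraries and 207, 227, 205 and 206 TPM in the IFN-γ libraries (log2 fold change -1.03, SE 0.04, adjusted p = 1.2e-07). Gas6, the ligand that bridges phosphatidylserine to TAM receptors, fell by 0.43, and Lrp1 and Dock1 fell by 1.1 and 1.2. Mertk, the main TAM receptor of macrophages, stood at 21.7, 20.3, 20.2 and 19.8 TPM in the M0 libraries and 20.4, 21.9, 21.5 and 22.2 TPM in the IFN-γ libraries. Its fitted rise of 0.32 (adjusted p = 0.0033) rested on the scaling and was 0.07 without it (adjusted p = 0.43). Cd300lf, an immunoreceptor that binds phosphatidylserine, rose by 2.11. Of the scavenger receptors, 2 of 13 tested members rose and 8 fell: Cd36, a receptor for oxidized lipoproteins, stood at 480.07, 476, 461 and 477 TPM in the M0 libraries and 147, 144, 159 and 168 TPM in the IFN-γ libraries (log2 fold change -1.35, SE 0.05, adjusted p = 5.8e-08), Mrc1, the mannose receptor, fell from 53.05 ± 1.81 to 22.9 ± 1.92 TPM (-0.92), and Marco rose from 0.66 ± 0.225 to 4.47 ± 0.721 TPM (1.88). Of the LXR and cholesterol efflux genes, 1 of 13 tested members rose and 10 fell. Abca1, the cholesterol exporter, stood at 35.4, 35.5, 36.01 and 33.5 TPM in the M0 libraries and 12.2, 12.2, 12.2 and 15.1 TPM in the IFN-γ libraries (log2 fold change -1.13, SE 0.09, adjusted p = 5.7e-06), and Apoe, among the most abundant transcripts, fell from 18015 ± 1218 to 11635 ± 51.6 TPM (-0.36). The IFN-γ cells were sorted as non-phagocytic, although their libraries held T cell transcripts as given above, and the M0 labels give no uptake status.

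Lysosome genes followed the same direction, with 17 of 26 lower and 3 higher. Ctsd, an aspartic protease, stood at 11447, 12152, 11916 and 12469 TPM in the M0 libraries and 4847, 4613, 4792 and 4827 TPM in the IFN-γ libraries (log2 fold change -1.06, SE 0.04, adjusted p = 3.6e-08), and Gpnmb, a lysosomal glycoprotein of lipid-laden macrophages, at 9373, 9934, 9933 and 10285 TPM in the M0 libraries and 4052, 3778, 3827 and 3887 TPM in the IFN-γ libraries (log2 fold change -1.08, SE 0.04, adjusted p = 5.0e-08). Tfeb, the transcription factor of lysosome genes, rose from 56.8 ± 1.25 to 76.2 ± 7.1 TPM (0.67), and Ctsh, a protease, by 0.45. Without scaling 21 of the 26 were lower.

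Glycolysis genes fell in 15 of 17 cases, against 29.8% of all genes. Pkm, pyruvate kinase, stood at 729, 784, 752 and 818 TPM in the M0 libraries and 386, 379, 412 and 412 TPM in the IFN-γ libraries (log2 fold change -0.69, SE 0.05, adjusted p = 2.9e-06). Pfkl, a phosphofructokinase, fell from 25.9 ± 2.29 to 8.22 ± 1.66 TPM (-1.31) and Slc16a3, the lactate exporter, from 53.8 ± 3.86 to 17.3 ± 2.96 TPM (-1.33). The exceptions were Hk3, a hexokinase of myeloid cells, at 221, 220.43, 216 and 223 TPM in the M0 libraries and 483, 474, 339 and 421 TPM in the IFN-γ libraries (log2 fold change 1.21, SE 0.10, adjusted p = 9.4e-06), and Pfkfb3, which rose by 0.48 and without scaling missed the threshold (0.23, adjusted p = 0.14). Of the TCA cycle genes 10 of 20 fell and 2 rose; Aco1, the cytosolic aconitase, fell by 1.14 and Sdhb, a succinate dehydrogenase subunit, rose by 0.72. Of the nuclear genes of the respiratory chain 14 of 24 rose and 5 fell, against 11 and 9 without scaling, led by Cox7c at 343, 359, 352 and 349 TPM in the M0 libraries and 627, 586, 646 and 642 TPM in the IFN-γ libraries (log2 fold change 1.10, SE 0.04, adjusted p = 4.2e-08). Many respiratory chain subunits have short transcripts, and after the correction for length and GC 11 were higher and 7 lower. Of the antioxidant genes 6 rose and 9 fell (4 and 11 without scaling). Cat (catalase) fell from 442 ± 12.6 to 126 ± 10.3 TPM (-1.54) and Srxn1 from 108 ± 2.71 to 26.6 ± 1.5 TPM (-1.72), and Txn1 (thioredoxin) rose by 0.83. Of the iron handling genes, 2 of 12 tested members rose and 5 fell (0 and 7 without scaling). Among these the heme oxygenase gene Hmox1 fell from 249 ± 4.66 to 113 ± 6.41 TPM (-0.87).

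Of the macrophage identity genes 11 of 19 fell and 3 rose, and without scaling 16 fell and 2 rose. Adgre1 (F4/80) stood at 715, 694, 729 and 708 TPM in the M0 libraries and 504, 475, 525 and 533 TPM in the IFN-γ libraries (log2 fold change -0.22, SE 0.04, adjusted p = 0.0014), and Csf1r, the receptor of the growth factor that sustains macrophages, at 588, 650.35, 677 and 632 TPM in the M0 libraries and 408, 429, 385 and 407 TPM in the IFN-γ libraries (log2 fold change -0.38, SE 0.05, adjusted p = 2.7e-04). Spi1 (PU.1), the lineage transcription factor, did not pass the test (log2 fold change 0.05, SE 0.05, adjusted p = 0.38), and without scaling it was called lower at -0.21 (adjusted p = 0.0015). Aif1, which encodes the cytoskeletal protein IBA1, was the largest rise of this list, at 40.05, 29.9, 34.2 and 30.2 TPM in the M0 libraries and 223, 161, 165 and 175 TPM in the IFN-γ libraries (log2 fold change 2.66, SE 0.12, adjusted p = 1.7e-07). Of the alternative activation genes 4 rose and 5 fell (2 and 10 without scaling); Stat6, the IL-4 signal transducer, fell from 99.6 ± 3.98 to 47.5 ± 3.28 TPM (-0.79).

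The IL-10 libraries were set against the same 4 M0 libraries, so the changes from M0 share their controls and are given side by side, and the test is the direct difference between IFN-γ and IL-10 in a fit of the 12 libraries. In that fit 2038 of 12497 genes differed between IL-10 and M0, 9.39% of genes higher and 6.92% lower, and 7569 (60.6%) differed between IFN-γ and IL-10, 28.8% higher and 31.8% lower in IFN-γ. The comparisons of IFN-γ with M0 and with IL-10 share the 4 IFN-γ libraries, and no overlap of their calls is given. The IL-10 libraries, at 51.7% to 80.8% of the deepest library, were closer in depth to M0.

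**Figure D5:**
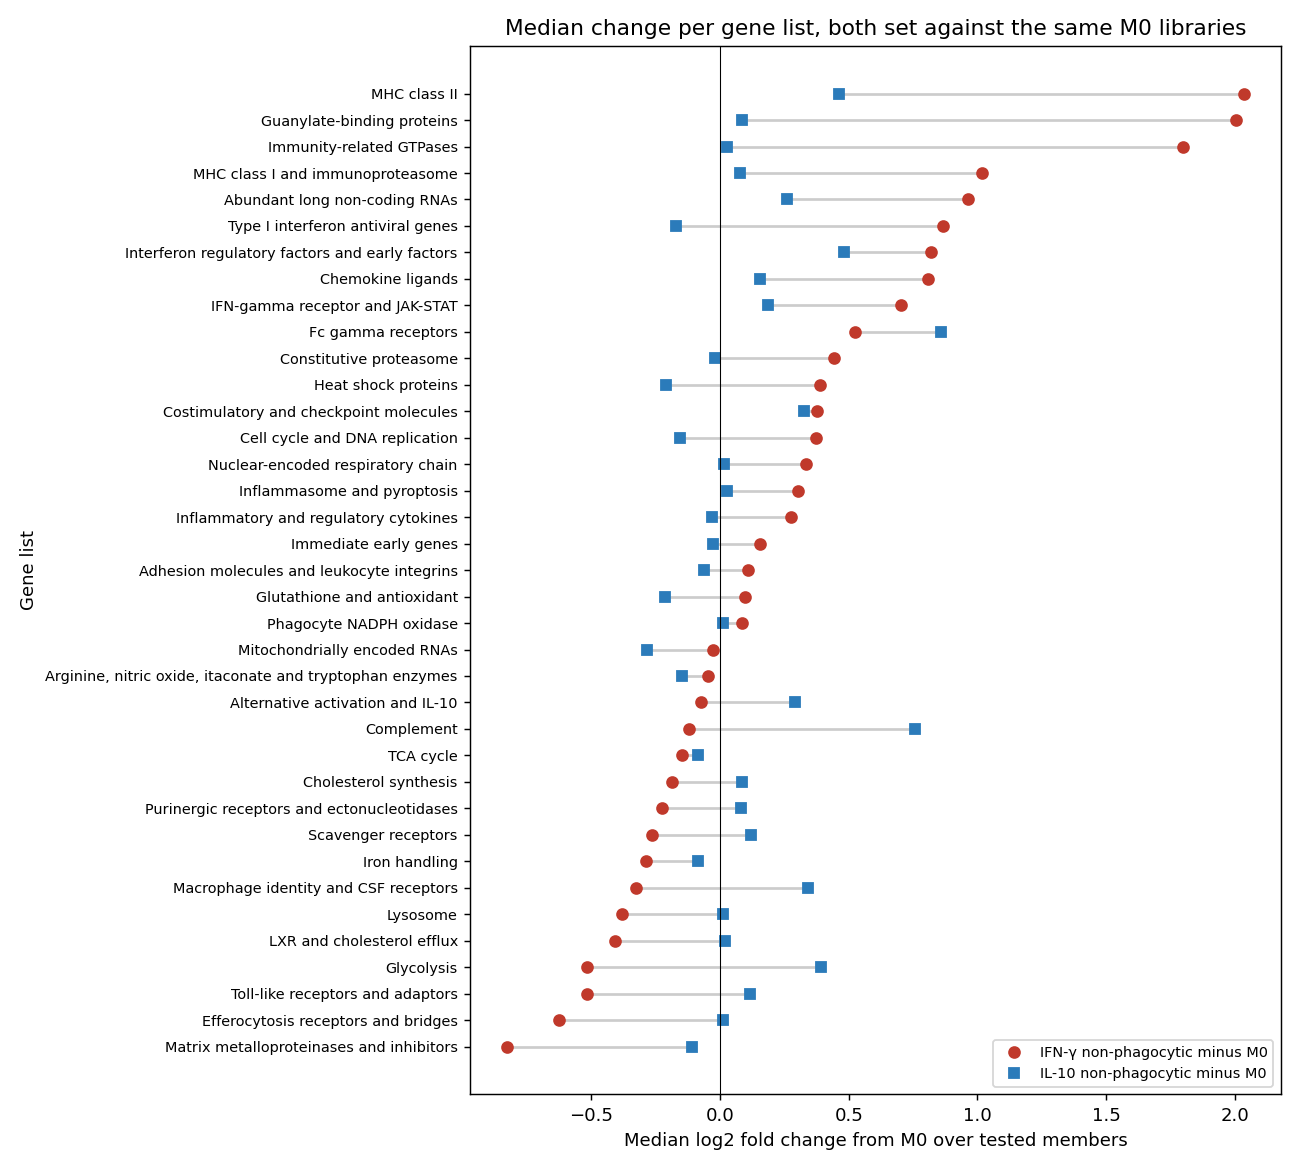
Median log2 fold change from M0 over the tested members of each gene list, for IFN-γ non-phagocytic (red circles) and IL-10 non-phagocytic (blue squares) libraries, which share the same M0 libraries. The MHC class II median is 2.03 for IFN-γ and 0.46 for IL-10, and the glycolysis median is -0.52 and 0.39.

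Among genes of the IFN-γ pathway, Gbp2 averaged 8.1 ± 0.255 TPM in IL-10 (log2 change from M0 0.67, adjusted p = 0.0015), and the difference between the cytokines was 5.12, adjusted p = 7.5e-12. Irf1 rose in IL-10 too (0.54, adjusted p = 8.6e-06), by less (1.81, adjusted p = 3.2e-11 for the difference). Irf8 rose by 0.49 in IFN-γ and 0.49 in IL-10, a difference of 0.01, adjusted p = 0.83. Ciita rose in both, by 1.01 and 0.84, and the difference missed the threshold (0.19, adjusted p = 0.35). H2-Ab1 rose by 0.71 in IL-10, and the difference was 1.37, adjusted p = 7.6e-11. Ccl8, at 13.4, 11.7, 9.23 and 10.01 TPM in the IL-10 libraries, rose by 3.27 there, and the difference from IFN-γ was just past the threshold (0.59, adjusted p = 0.0496). Mmp12 fell in both, by 1.95 in IFN-γ and 1.96 in IL-10 (difference 0.02, adjusted p = 0.7), and Cd36 by 1.35 and 1.55 (difference 0.21, adjusted p = 0.0042). For Mmp12 the difference missed the threshold, and for Cd36 it passed with the lower level in IL-10.

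Other genes moved in opposite directions. Cd5l, a scavenger receptor-like protein secreted by macrophages, fell by 1.30 in IFN-γ and rose by 1.10 in IL-10 (difference -2.40, adjusted p = 3.1e-13). Csf1r fell by 0.38 and rose by 0.54 (difference -0.91, adjusted p = 5.3e-09), and Hmox1 fell by 0.87 and rose by 0.78 (difference -1.64, adjusted p = 1.5e-11). Slc16a3 fell by 1.33 and rose by 1.24 (difference -2.56, adjusted p = 5.3e-10). Tnf rose by 1.38 in IFN-γ and fell by 1.08 in IL-10 (difference 2.47, adjusted p = 6.2e-08). Socs3, a gene induced through the IL-10 receptor and STAT3, reached 168 ± 4.58 TPM in IL-10, so that it was lower in IFN-γ than in IL-10 (-3.15, adjusted p = 3.0e-09) while higher than in M0. Of the T cell transcripts, Trac was not called between IL-10 and M0 (0.19, adjusted p = 0.78) and differed between the cytokines by 3.20, adjusted p = 7.5e-07.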

How the data were processed

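RNA of mouse bone marrow derived macrophages was sequenced after preparation with a directional kit, from poly(A) RNA per the labels. The deposited values are TPM per gene, made by the authors. STAR, RSEM and mm10 are named in the submitters' processing notes, and versions and annotation are not given in the sources used here. Each table held 55487 gene identifiers, of which 55141 were matched to a symbol.

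TPM are not counts, so limma 3.58.1 in R 4.3.3 was run on log2(TPM + 1) of the 8 libraries, with trimmed-mean scaling (30% of ratios and 5% of levels trimmed at each end), a minimum of 1 TPM in 4 libraries, a mean-variance trend and Benjamini-Hochberg adjustment over all genes tested, at a threshold of 0.05. A second fit held the 12 libraries of IFN-γ, IL-10 and M0. Relative depth was estimated from steps between low TPM values of genes with 1 transcript, taking values within 0.15 reads of a whole number as whole. Total depth is unknown, so no counting interval is given.

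Members and gene lists were chosen with earlier results of these data known. Named genes were the 12 largest rises and 12 largest falls of at least 10 TPM with separate groups, in each list the 4 most abundant members and the 3 largest changes in each direction, a set of genes of the pathway, and those marked as added later. Alternatives covered scaling, pseudocount, filters, group variances, a model of all libraries, the replicate number as a block, and each library left out. Some genes that this rule selects are not reported here.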

Additional observations from a re-analysis of the deposited data

Results flagged for a closer look

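Among 294 groups of 4 libraries checked (147 named genes in IFN-γ and M0), 19 held a library whose gap to the nearest other exceeded Dixon's critical value for 4 samples. Chance flags about 1 in 20 groups. M0 replicate 1 stood apart above the other M0 libraries for Cxcl9 (1.83 TPM against 0.02 to 0.25), C4b (0.42 against 0.05 to 0.11), Trac (13.99 against 4.03 to 5.61) and Rpph1 (13.4 against 5.53 to 6.15). It stood apart below them for Egr1 (52.04 TPM) and Spi1 (240.6 TPM). IFN-γ replicate 3 stood apart below its group for Nlrc5 (38.3 TPM against 65.4 to 68.3) and H2-D1 (4254 TPM), and above it for Nr4a1 (43.1 TPM against 26.01 to 28), Socs1 (6.98 against 3.82 to 4.18) and Psma5 (107 against 95.8 to 96.4). IFN-γ replicate 4 was apart for Igtp (25.6 TPM, below), Abca1 (15.1 TPM, above) and Ifih1 (10.6 TPM, above), and IFN-γ replicate 2 for Mfge8 (227 TPM, above). M0 replicate 3 was low for Aim2 (37.5 TPM) and Csf1 (15.7 TPM). M0 replicate 2 was low for Aurkb (6.74 TPM) and was the only M0 library with a value above 0 for Klrk1 (0.02 TPM).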

How the results depend on the processing

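When calls also had to reach 1 on the log2 scale, 1765 were left between IFN-γ and M0 and 1761 between IFN-γ and IL-10. Without scaling 7802 genes were called against M0, of which 29.8% were higher, compared with 48.0% of the 6913 with scaling, and 8342 against IL-10, of which 28.4% were higher, compared with 47.5% of 7569. Leaving out each library in turn gave 5944 to 6815 genes against M0 and 6914 to 7492 against IL-10. All other alternatives gave counts within 1.5 times those reported. The replicate numbers did not pair the samples: deviations of same-numbered libraries correlated between -0.013 and 0.031, and 1 of 4 correlated best with its own number. With the replicate block 6538 genes were called against M0 (3199 higher and 3339 lower) and 7397 against IL-10. Of 143 genes named with a test, each under 18 alternatives, 5 lost the call under 1 or 2 alternatives (C1qc, Cxcl2, Mertk, Pfkfb3 and Psmb5), H2-D1 and Ifngr1 gained it under 3 each, and 3 that missed the threshold in the reported fit changed sign. Ifngr2 was -0.22 without scaling, and between -0.11 and 0.16 with 1 library left out. Irgm2 was 0.070 after the correction for transcript length and GC, and between -0.18 and 0.030 with 1 library left out. Spi1 was -0.21 without scaling, where it passed the threshold, and -0.0547 after that correction, which was chosen after seeing the data. The causes were not tested. The lower depth of the IFN-γ libraries limits genes of a few TPM, such as Nos2 and Arg1.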
